A study of Homo sapiens with 12 samples.

Results

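Homologous recombination and the Fanconi anemia pathway were followed through 47 genes, chosen by symbol for their known function from the 59251 genes of the count table. They encode the Fanconi core complex and its ubiquitin-conjugating enzyme, the FANCD2-FANCI complex, BRCA1, BRCA2 and their partners, strand exchange factors, nucleases that open DNA ends, checkpoint kinases, junction-processing enzymes and 3 further repair enzymes. HL-60 cells, a human myeloid leukemia cell line, were left untreated (non-treated cells), or were given 1 µM all-trans retinoic acid (ATRA), palbociclib at 1 µM, which inhibits CDK4 and CDK6 (CDK4/6i), or both together (CDK4/6i+ATRA). All groups were collected after 48 h in RPMI1640 medium with 10% FBS. RNA-Seq was performed on total RNA of 12 libraries, labelled as 3 biological replicates per group. The labels do not say what vehicle non-treated cells received.

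Interstrand crosslinks block both strands of DNA. The Fanconi core complex senses the block and attaches ubiquitin to FANCD2 and FANCI, which brings in nucleases, and the break that results is repaired by homologous recombination. In that process the broken end is trimmed to single-stranded DNA, which pairs with an intact sister chromatid and copies it, so the pathway works mainly in S and G2 phase, and many of its genes are known targets of the cell-cycle transcription factors that CDK4/6 inhibition holds back.

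With CDK4/6i+ATRA, most of the chosen genes were lower. Of the 46 genes with enough reads to test, 41 were lower than in non-treated cells (40.7% of all tested genes were), 37 of them by at least 2-fold (3098 of all 13318 tested genes were lower by that much), 3 were higher and 2 did not pass the test. NEIL3 and CLSPN were left at 0.549% and 0.932% of their non-treated level and EXO1 and RAD54B had 8 counts and 1 count in 3 libraries, whereas ATM, the kinase that responds to double-strand breaks, rose to 283% of its non-treated level. CDK4/6i alone lowered 40 of the 46 genes (27.9% of all tested genes), with a median fall smaller than that of both drugs. With ATRA alone the shares called, 41.3% lower and 21.7% higher, lay nearer to the 35.5% and 32.1% of all tested genes.

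Values are CPM, counts divided by a library's total and set to a common scale after correction by TMM, a factor that centers most genes on no change. A gene was called higher or lower when its p-value from edgeR's quasi-likelihood test, adjusted over all 13318 tested genes, was under 0.05. Fold changes are on the log2 scale, where -1 is a 2-fold fall, with an approximate standard error (SE). The SE is the absolute fold change divided by the square root of the test's F statistic. For genes left with few counts, such as EXO1, NEIL3 and RAD54B, it can be smaller than the counting error. Total counts ranged from 12230923 to 18679544 per library and were lowest in the CDK4/6i+ATRA libraries, where 3 counts, taken as the floor of detection, correspond to 0.248 to 0.275 CPM. The 3 comparisons with non-treated cells share the same 3 control libraries. Of 10 myeloid markers, 7 were detected, led by MPO (myeloperoxidase) at 6517 ± 168 CPM (SD, n = 3) in non-treated cells, while the granule genes ELANE, AZU1 and PRTN3 were listed at 0 in every library. These 3 are annotated on alternate contigs too, and whether reads were lost in counting was not tested. ATRA brought MPO to 293 ± 27.4 CPM, CDK4/6i to 3469 ± 66.4 and both drugs to 28.0 ± 5.15 (SD, n = 3 each). Other myeloid markers went up with CDK4/6i+ATRA, namely CSF3R (log2 1.58), SPI1 (1.503), CEBPE (0.75) and LYZ (0.73), while CEBPA was lower (-2.30) and CD33 did not pass the test (0.09). Of the 7 tested, 4 were lower and 3 higher with ATRA, 2 and 5 with CDK4/6i, and 2 and 4 with both. A further 10 genes were listed as markers of other lineages, although PECAM1 is not confined to them. Their summed level, mostly CD79A and PECAM1, was 40.9 to 45.7 CPM in non-treated cells and 55.04 to 58.3 under ATRA. It was 55.8 to 56.6 under CDK4/6i and 29.2 to 31.7 under both, where the 3 tested were lower. Its part in the results was not tested. The markers HBB, EPCAM and MS4A1 were at 0.

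The proliferation markers, 14 genes such as MKI67 and the MCM helicase subunits, moved with the repair genes. Their summed level was 5559 to 5709 CPM in non-treated cells, 5517 to 5691 with ATRA, 890 to 944 with CDK4/6i and 162 to 167 with CDK4/6i+ATRA, and all 14 were lower in both CDK4/6i-containing groups. The summed level of the 47 repair genes was 2383 to 2428 CPM, 2145 to 2245, 1007 to 1088 and 696 to 758 in the same order. In bulk RNA, fewer cells in S and G2 phase and less RNA of these genes per cell cannot be told apart, and the part of the markers in the results was not tested.

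A count against the whole transcriptome shows how far these numbers stand out. With ATRA, 19 of 46 genes were lower and 10 higher (median log2 fold change -0.16), when 35.5% of all tested genes were lower and 32.1% higher (median -0.03). With CDK4/6i, 40 genes were lower and 3, ATM, FANCF and RAD50, higher (median -1.22), against 27.9% and 28.3% of all tested genes (median 0.02). With CDK4/6i+ATRA, 41 were lower and 3, ATM, HELQ and NBN, higher (median -2.97), against 40.7% and 41% (median 0.02). The shares of these genes that were lower, 41.3%, 87% and 89.1% in the same order, thus stood close to that of all tested genes with ATRA and above it in both CDK4/6i-containing groups. All CDK4/6i+ATRA libraries lay below all non-treated libraries for 42 of the 46 genes, and for 40.8% of all tested genes.

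Against CDK4/6i alone, CDK4/6i+ATRA had 40 genes lower and 5 higher, ATM, FANCL, HELQ, MUS81 and NBN (median -1.59), when 39.5% of all tested genes were lower and 39.1% higher in CDK4/6i+ATRA than in CDK4/6i alone. The value of MUS81 there (0.24, SE 0.06) was not called without a filter (0.14, adjusted p = 0.0982) and turned to -0.04 when libraries were scaled by size alone. Adding CDK4/6i to ATRA lowered 41 and raised 2, ATM and NBN (median -2.48), against 32.8% and 36.9%. The rise of NBN (0.16, SE 0.06, adjusted p = 0.00999) was lost without ATRA replicate 3 or CDK4/6i+ATRA replicate 3 (adjusted p = 0.0573 and 0.154), without a filter (0.503) and with only the groups compared (0.145), and turned to -0.15 with scaling by library size alone. The interaction, the log2 fold change of CDK4/6i+ATRA minus the sum of both single-drug values, was negative for 39 genes and positive for 4 (median -1.24), against 27% and 24.5% of all tested genes. A negative interaction means that the level under both drugs was lower than the product of the 2 single-drug folds.

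**Figure D1:**
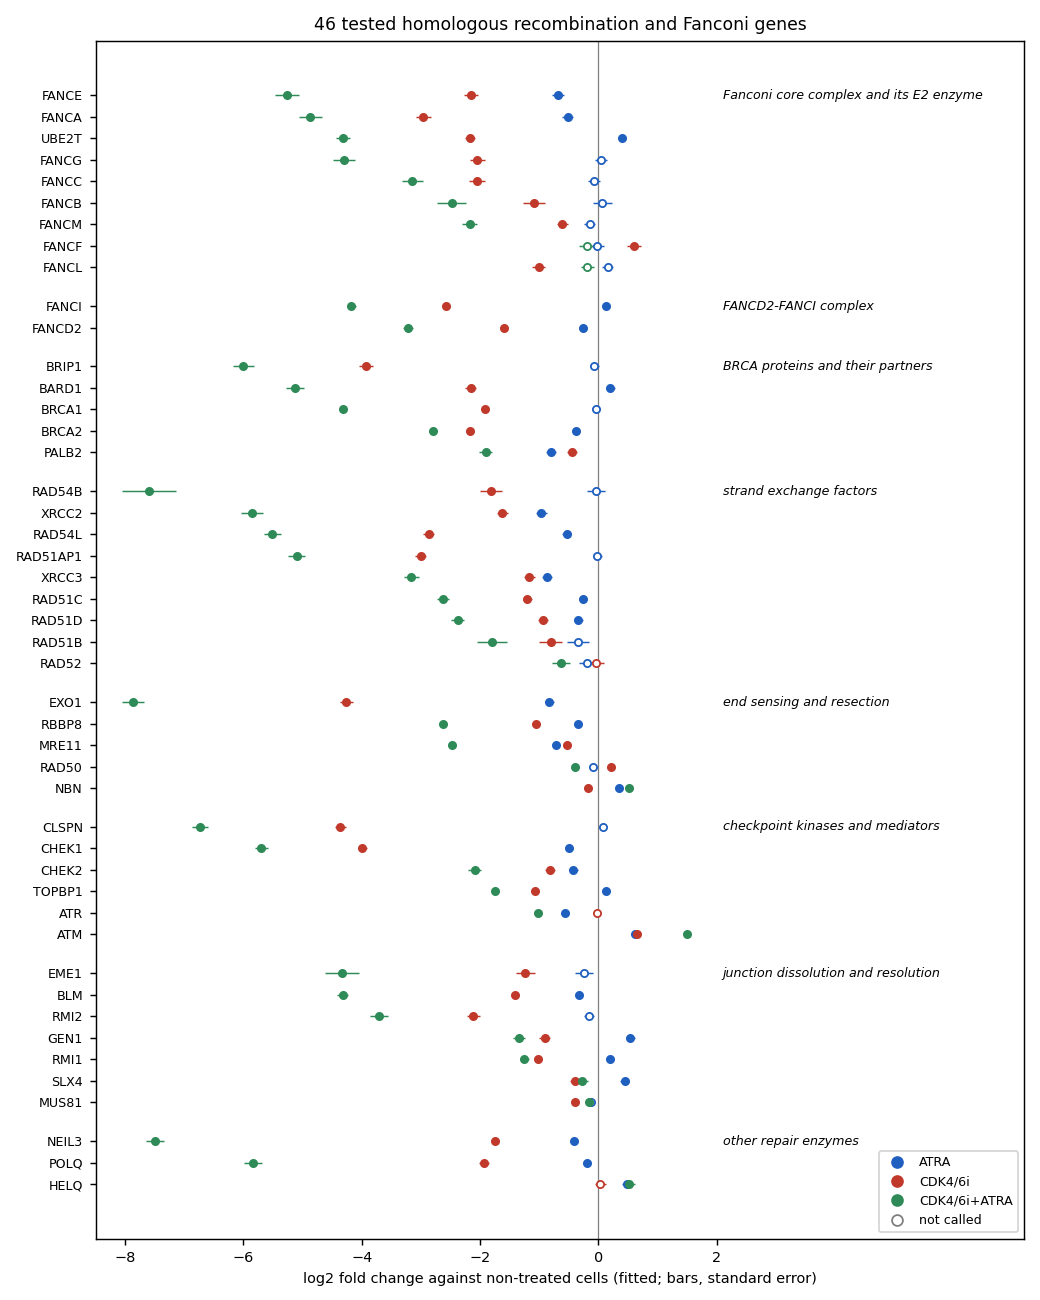
Fitted log2 fold change against non-treated cells for the 46 tested genes (bars, SE; n = 3 libraries per group), grouped by role; filled points passed the test and open points did not. With CDK4/6i+ATRA, 41 points lie to the left of 0 and passed the test, and ATM, HELQ and NBN lie to the right.

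By their calls in the 3 treated groups, 18 genes (39.1%, against 15.1% of all tested genes) were lower in all 3 groups, BRCA2, CHEK1, EXO1, FANCD2, MRE11 and PALB2 among them. Another 13 (28.3%, against 4.35%) did not pass the test with ATRA but were lower in both other groups, including BRCA1, BRIP1, CLSPN and FANCG. A group of 7 (15.2%, against 1.94%) was higher with ATRA alone and lower in both CDK4/6i-containing groups, namely BARD1, FANCI, GEN1, RMI1, SLX4, TOPBP1 and UBE2T. The other 8 genes, ATM, NBN, HELQ, ATR, RAD50, FANCF, FANCL and RAD52, each had a pattern of their own. Calls with ATRA of BARD1, POLQ and RMI1 were lost, and those of CLSPN, FANCL, RAD51B and RMI2 gained, under at least 1 alternative, so these groupings are not firm at their edges. ATRIP, the partner of ATR, was the 1 gene that did not pass the filter on low counts, with 0 to 7 counts per library. Its exons share 4214 bases on the same strand with the read-through gene ATRIP-TREX1, so its reads may have been divided or discarded.

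Promoter sequence was examined because E2F factors, held inactive by the RB protein until CDK4/6 phosphorylates it, bind short GC-rich motifs near the start of many S-phase genes. The windows were the RefSeq promoters of GRCh38.p14, from 250 bases before to 50 bases after 1 transcription start per gene, which can lie apart from the first exon in the count table. Of the 47 genes, 43 had an entry, and FANCI, RAD54B, NBN and RMI2 had none. The E2F motif was searched as TTTCGCGC, TTTGGCGC, TTCCCGCC or TTGGCGCC on both strands, of which the second and the last can overlap. It was present in 16 of 43 windows (37.2%), in 5.04% of 27305 windows of all genes and in 8.23% of 9788 windows of tested genes. The CHR motif, TTTGAA, of late cell-cycle genes was present in 7 windows (16.3%, against 15.4% of all and 10.2% of tested genes) and the NF-Y motif, CCAAT, in 20 (46.5%, against 35.7% and 36.9%). These matches are descriptions of letters, not of bound sites. Because E2F motifs differed most from the background in these windows, the first matches of 11 of the 16 genes are shown. The matches of FANCC, RAD51AP1, XRCC3, RAD54L and RAD52 are not shown. Sequences run 5′ to 3′ on the strand of the gene, with the motif in capitals.
FANCA, chr16:89816609-89816638, minus strand: ccggggctgtaGGCGCCAAggccatgtccg
FANCD2, chr3:10026423-10026452, plus strand: gcgtcgggcctGGCGGGAAagtcgaaaact
BRIP1, chr17:61863509-61863538, minus strand: agggggcgggaGGCGGGAAttcgtctcggg
XRCC2, chr7:152676103-152676132, minus strand: atggcgttggtGGCGGGAAagttgagtctc
EXO1, chr1:241848197-241848226, plus strand: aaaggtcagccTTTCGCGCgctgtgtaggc
CLSPN, chr1:35769966-35769995, minus strand: cactctggctgGGCGGGAAagcaagaacag
BLM, chr15:90717260-90717289, plus strand: cagcctgagggGGCGGGAAcagatgtccga
POLQ, chr3:121545957-121545986, minus strand: gtttgaagactGGCGGGAAgatgtccgcag
TOPBP1, chr3:133661930-133661959, minus strand: ccgcgcggttgGCGCGAAAgtcggttcccg
GEN1, chr2:17753859-17753888, plus strand: cagttgcggggTTTCGCGCcgccggagtct
FANCL, chr2:58241406-58241435, minus strand: cctccaggatcTTCCCGCCaaggctggggt

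In 6 of the 16 windows the first match lay wholly after the start, as in EXO1, FANCA and POLQ, and in 4 it spanned the start, so that 6 windows (13.95%) held a match when the 50 bases after the start were left out, against 4.36% of all and 7.13% of tested genes. Of the 16 genes with a match, 15 were lower with CDK4/6i+ATRA and FANCL was the exception. Of 26 tested genes without a match, 23 were lower. Of all tested genes with a window, 59.9% of the 806 with a match and 41.4% of the 8982 without were lower there. The median log2 fold change was -4.59 with and -2.43 without a match with CDK4/6i+ATRA, and -1.78 and -0.98 with CDK4/6i alone, as a description of these genes. Over all tested genes with a window, the medians with and without a match were -0.55 and 0.02 with CDK4/6i+ATRA. They were -0.20 and 0.03 with CDK4/6i alone. Matches after the start are included in these splits.

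The 4 deepest falls with CDK4/6i+ATRA among genes with a promoter entry were those of EXO1, NEIL3, CLSPN and BRIP1. Their promoters are shown over the 250 bases before the start, with CHR and NF-Y matches in capitals.
EXO1, chr1:241847954-241848203, plus strand: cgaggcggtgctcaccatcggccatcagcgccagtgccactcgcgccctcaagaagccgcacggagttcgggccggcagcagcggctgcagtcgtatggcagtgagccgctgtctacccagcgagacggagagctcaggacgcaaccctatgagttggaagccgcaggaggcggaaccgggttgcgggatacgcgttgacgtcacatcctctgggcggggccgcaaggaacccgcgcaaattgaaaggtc
NEIL3, chr4:177309624-177309873, plus strand: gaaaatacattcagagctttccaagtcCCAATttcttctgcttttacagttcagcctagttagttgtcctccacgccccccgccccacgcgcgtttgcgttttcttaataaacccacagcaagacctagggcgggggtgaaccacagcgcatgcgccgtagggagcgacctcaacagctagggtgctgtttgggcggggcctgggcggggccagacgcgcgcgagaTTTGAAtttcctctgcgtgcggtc
CLSPN, chr1:35769979-35770228, minus strand: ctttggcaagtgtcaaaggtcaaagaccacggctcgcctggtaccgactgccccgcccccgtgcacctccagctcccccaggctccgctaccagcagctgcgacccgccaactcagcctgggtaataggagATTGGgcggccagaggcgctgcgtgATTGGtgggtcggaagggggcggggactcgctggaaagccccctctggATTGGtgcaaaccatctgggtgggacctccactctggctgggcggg
BRIP1, chr17:61863529-61863778, minus strand: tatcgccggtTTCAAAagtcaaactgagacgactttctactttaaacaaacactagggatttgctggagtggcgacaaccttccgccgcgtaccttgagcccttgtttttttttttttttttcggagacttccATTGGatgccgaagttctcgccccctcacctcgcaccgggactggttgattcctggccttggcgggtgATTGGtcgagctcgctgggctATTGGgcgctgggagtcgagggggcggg

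NEIL3 held a CHR match 24 to 19 bases and an NF-Y match 223 to 219 bases before its start. CLSPN held 3 NF-Y matches and BRIP1 held 3 NF-Y matches and 1 CHR match. EXO1 held no match to any of these motifs in the 250 bases, and its E2F match, shown above, lay from base 5 to base 12 after the start.

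In the Fanconi core complex with its E2 enzyme, 7 of 9 genes were lower with CDK4/6i+ATRA and 8 with CDK4/6i, while FANCF and FANCL, the E3 ligase subunit, were not called with CDK4/6i+ATRA. Of all tested genes 40.7% and 27.9% were lower in these comparisons. FANCE (hg38 chr6:35452338-35467102), which links the core complex to FANCD2, was counted at 20.1, 20.3 and 21.2 CPM in non-treated cells, at 13.2, 11.7 and 13.4 with ATRA, at 4.67, 4.22 and 4.92 with CDK4/6i and at 0.733, 0.357 and 0.496 with CDK4/6i+ATRA. No group overlapped another. The log2 fold change of FANCE was -0.68 (SE 0.10) with ATRA, -2.16 (SE 0.12) with CDK4/6i and -5.27 (SE 0.20, adjusted p = 8.05e-29) with CDK4/6i+ATRA. FANCA (chr16:89737549-89816647), a scaffold subunit with the E2F match shown above, had 22.7, 20.8 and 21.1 CPM in non-treated cells, 15.5, 15.9 and 13.7 with ATRA, 2.33, 2.99 and 2.98 with CDK4/6i and 0.642, 0.891 and 0.661 with CDK4/6i+ATRA. The levels fell stepwise from group to group without overlap (log2 -0.52, -2.96 and -4.87, SE 0.10, 0.13 and 0.19, adjusted p = 1.28e-28 for the last).

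UBE2T (chr1:202331657-202341936), the E2 enzyme that supplies ubiquitin to the pathway, went in opposite directions under the single drugs. It had 47.7, 50.9 and 42.0 CPM in non-treated cells, 62.0, 62.0 and 61.9 with ATRA, 9.75, 11.5 and 9.95 with CDK4/6i and 2.38, 2.14 and 2.48 with CDK4/6i+ATRA. All ATRA libraries lay above and all CDK4/6i+ATRA libraries far below the controls (log2 0.41 with SE 0.06, adjusted p = 1.27e-07, and -4.32 with SE 0.12, adjusted p = 1.09e-34). FANCL (chr2:58159243-58241380) behaved differently from its partners. Its levels were 15.7, 18.2 and 15.3 CPM in non-treated cells, 19.2, 18.4 and 17.1 with ATRA, 6.64, 9.04 and 8.89 with CDK4/6i and 15.03, 14.5 and 13.6 with CDK4/6i+ATRA. CDK4/6i alone lowered FANCL (log2 -1.01, SE 0.11, adjusted p = 3.24e-11), and its level with CDK4/6i+ATRA was higher than with CDK4/6i alone (log2 0.82, SE 0.12, adjusted p = 2.6e-08), without overlap. The value against non-treated cells was -0.19 (SE 0.11, adjusted p = 0.0991), but FANCL was called lower without non-treated replicate 3 (-0.25, adjusted p = 0.0499), without a filter (-0.30) and with scaling by library size alone (-0.46). Exons of FANCL share bases with VRK2 on the opposite strand, those of FANCA with ZNF276, and whether reads were counted by strand is not stated.

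The remaining core genes ranged from -4.30 to -0.19 on the log2 scale with CDK4/6i+ATRA. FANCG, a partner of FANCA, was at -4.30 (SE 0.19), FANCC at -3.14 (SE 0.17), FANCB at -2.48 (SE 0.24) and FANCM, the translocase that docks the complex on DNA, at -2.17 (SE 0.13). FANCC was uneven in the CDK4/6i+ATRA libraries, with 0.917, 2.23 and 2.97 CPM against 17.5 to 19.5 in non-treated cells. FANCF was the 1 core gene that CDK4/6i raised, from 8.84 ± 0.84 to 13.4 ± 0.86 CPM (SD, n = 3 each, adjusted p = 1.04e-05), and with CDK4/6i+ATRA it was at 7.74 ± 0.67 CPM (adjusted p = 0.18, and called lower at -0.46 with scaling by library size alone).

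FANCD2 and FANCI, which form the clamp that the core complex ubiquitinates, were both lower. FANCI (chr15:89243979-89317259) had 161, 169 and 164 CPM in non-treated cells, 175, 182 and 185 with ATRA, 25.8, 30.5 and 26.9 with CDK4/6i and 10.6, 7.76 and 9.01 with CDK4/6i+ATRA. It was slightly higher with ATRA (log2 0.14, SE 0.04, adjusted p = 0.00486), and the groups did not overlap. FANCD2 (chr3:10026437-10101932), whose window held the E2F match shown above, had 68.5, 66.6 and 72.8 CPM, then 57.2, 57.7 and 58.2, then 20.3, 25.8 and 22.6, then 7.24, 7.84 and 7.19 in the same order of groups. Under both drugs FANCI was at -4.17 (SE 0.07) on the log2 scale and FANCD2 at -3.22 (SE 0.09), with adjusted p = 9.51e-44 and 4.37e-35.

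All 5 genes of the BRCA group were lower in both CDK4/6i-containing groups, against 27.9% of all tested genes with CDK4/6i and 40.7% with both drugs. BRIP1 (chr17:61679139-61863528), the helicase bound by BRCA1, had 38.4, 36.4 and 33.4 CPM in non-treated cells, 34.0, 34.6 and 34.5 with ATRA, 2.13, 2.02 and 2.93 with CDK4/6i and 0.367, 0.802 and 0.496 with CDK4/6i+ATRA. ATRA libraries overlapped the controls (log2 -0.07, SE 0.07, adjusted p = 0.417), whereas both CDK4/6i-containing groups lay more than 10 times lower. The log2 fold change of BRIP1 was -3.93 (SE 0.12) with CDK4/6i and -6.00 (SE 0.17, adjusted p = 5.54e-34) with CDK4/6i+ATRA. BARD1 (chr2:214725646-214809683), the obligate partner of BRCA1 in its ubiquitin ligase, had 33.2, 33.1 and 35.7 CPM in non-treated cells, 36.2, 40.1 and 41.0 with ATRA, 7.52, 7.52 and 7.78 with CDK4/6i and 1.19, 1.16 and 0.578 with CDK4/6i+ATRA. No ATRA library overlapped the controls (log2 0.20, SE 0.07, adjusted p = 0.0106), a call that was lost without ATRA replicate 3 (0.17, adjusted p = 0.0711). With CDK4/6i+ATRA BARD1 was at -5.13 (SE 0.15, adjusted p = 2.65e-33).

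BRCA1 itself went from 132 ± 4.49 to 6.60 ± 0.38 CPM (SD, n = 3 each) with CDK4/6i+ATRA (log2 -4.32, SE 0.07, adjusted p = 1.68e-43) and did not pass the test with ATRA (-0.04, SE 0.04). BRCA2, a mediator of strand exchange, behaved otherwise. CDK4/6i alone brought BRCA2 from 116 ± 4.17 to 25.7 ± 1.23 CPM, and adding ATRA took it to 16.8 ± 1.86 CPM (SD, n = 3 each), a small further fall (log2 -0.62, SE 0.08, adjusted p = 1.16e-09). PALB2, the bridge between BRCA1 and BRCA2, was lowered more by ATRA (-0.80, SE 0.08) than by CDK4/6i (-0.45, SE 0.08), and reached -1.91 (SE 0.10) with both. The difference between the single drugs for PALB2 was not tested.

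The 9 strand exchange factors were all called lower with CDK4/6i+ATRA, as were 40.7% of all tested genes, by amounts from a few counts left to -0.64 on the log2 scale. RAD54B (chr8:94371960-94475115), a DNA translocase, was counted at 8.23, 6.58 and 6.65 CPM in non-treated cells, 6.66, 6.76 and 7.40 with ATRA, 1.97, 2.26 and 1.87 with CDK4/6i and 0, 0 and 0.0826 with CDK4/6i+ATRA. The last group held 0, 0 and 1 count, so the pooled level in non-treated cells was 245-fold higher with a 95% exact counting interval of 43.7 to 9695, which covers counting error only, and the fitted value of -7.59 depends on the small count that the fit adds. XRCC2 (chr7:152644776-152676141), a cofactor of strand exchange, had 29.4, 30.2 and 28.2 CPM in non-treated cells, 14.6, 16.3 and 14.1 with ATRA, 8.19, 10.3 and 10.2 with CDK4/6i and 0.458, 0.535 and 0.496 with CDK4/6i+ATRA. Its groups were apart throughout (log2 -0.96, -1.62 and -5.86, SE 0.09, 0.09 and 0.19, adjusted p = 3.75e-32 for the last).

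The related cofactors had smaller values than XRCC2, a difference that was not tested. XRCC3 was at -3.16 (SE 0.12), RAD51C at -2.62 (SE 0.10), RAD51D at -2.38 (SE 0.11) and RAD51B at -1.80 (SE 0.25) with CDK4/6i+ATRA. XRCC3 was spread widely in that group, at 7.24, 4.55 and 2.89 CPM, all below the 41.3 to 44.8 CPM of non-treated cells. RAD54L, the other translocase, went from 48.4 ± 0.74 to 1.07 ± 0.49 CPM (SD, n = 3 each, log2 -5.51, SE 0.14) and RAD51AP1, a cofactor of strand pairing, from 38.3 ± 0.83 to 1.10 ± 0.48 CPM (-5.10, SE 0.14). RAD52, an annealing protein, fell least, from 8.59 ± 0.31 to 5.53 ± 1.23 CPM (-0.64, SE 0.15, adjusted p = 0.000164), and was not called with either drug alone. RAD52 shares exon bases with ERC1 and RAD54L with LRRC41, both on the opposite strand and both with more counts.

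End sensing and resection divided sharply. EXO1 (chr1:241847986-241889939), the exonuclease that extends resection, had 55.4, 59.9 and 54.3 CPM in non-treated cells, 29.2, 31.5 and 34.5 with ATRA, 2.33, 3.61 and 2.98 with CDK4/6i and 0.183, 0.0891 and 0.413 with CDK4/6i+ATRA. Every group lay below the one before. The CDK4/6i+ATRA libraries held 2, 1 and 5 counts of EXO1, and the pooled non-treated level was 241-fold higher (95% exact counting interval 122 to 560). The fitted log2 fold change was -0.83 (SE 0.07) with ATRA and -4.26 (SE 0.11, adjusted p = 1.15e-35) with CDK4/6i. RBBP8 (chr18:22914139-23026486), encoding CtIP, which starts resection, had 170.2, 168 and 159 CPM in non-treated cells, 125, 134 and 134 with ATRA, 79.8, 80.1 and 81.0 with CDK4/6i and 24.9, 28.1 and 27.4 with CDK4/6i+ATRA. The groups were again apart, at log2 -0.34 (SE 0.04), -1.05 (SE 0.04) and -2.63 (SE 0.05, adjusted p = 3.75e-40).

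MRE11, RAD50 and NBN encode 1 complex that binds broken ends, yet their transcripts moved apart. MRE11, its nuclease, went from 81.0 ± 1.48 CPM in non-treated cells to 49.4 ± 2.14 under ATRA, 56.2 ± 3.54 under CDK4/6i and 14.5 ± 1.09 under both (SD, n = 3 each, log2 -2.48 with SE 0.07 for the last). RAD50 stayed closer to its starting level, at 66.3 ± 2.25, 62.2 ± 1.26, 76.5 ± 0.73 and 50.7 ± 2.15 CPM, and was called higher with CDK4/6i (0.21, SE 0.05) and lower with CDK4/6i+ATRA (-0.39, SE 0.05). NBN (chr8:89933331-89984667), which recruits ATM, had 47.5, 51.9 and 48.3 CPM in non-treated cells, 65.6, 61.9 and 61.2 with ATRA, 44.7, 42.2 and 43.4 with CDK4/6i and 67.8, 66.8 and 75.4 with CDK4/6i+ATRA. Both ATRA-containing groups lay above the controls without overlap (log2 0.35, SE 0.05, adjusted p = 1.77e-07, and 0.51, SE 0.06, adjusted p = 2.19e-11) and CDK4/6i libraries below them (-0.18, SE 0.06, adjusted p = 0.0059, and 0.0548 without non-treated replicate 2).

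Checkpoint genes held deep falls beside the largest rise. CLSPN (chr1:35720213-35769978), the adaptor that presents CHEK1 to ATR, had 74.8, 78.8 and 72.9 CPM in non-treated cells, 76.4, 80.3 and 81.4 with ATRA, 2.90, 4.28 and 3.92 with CDK4/6i and 0.642, 0.891 and 0.578 with CDK4/6i+ATRA. ATRA alone left it overlapping the controls (log2 0.07, SE 0.05, adjusted p = 0.233, and called higher at 0.12, adjusted p = 0.0169, with only the groups compared), CDK4/6i lowered it to -4.36 (SE 0.09) and the combination to -6.73 (SE 0.13, adjusted p = 7.04e-41). CHEK1 (chr11:125625136-125681124), the replication stress kinase, had 102, 108 and 105 CPM, then 69.4, 77.4 and 77.2, then 5.50, 6.36 and 8.08, then 1.56, 2.59 and 1.90 in the same order. Its groups were apart, with -0.49 (SE 0.06), -3.99 (SE 0.08) and -5.70 (SE 0.11, adjusted p = 2.83e-41).

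ATM (chr11:108223067-108369102) went the other way in all 3 treated groups. Its levels were 70.7, 74.0 and 83.3 CPM in non-treated cells, 116, 120.5 and 115 with ATRA, 113, 124 and 124 with CDK4/6i and 239.7, 202 and 205 with CDK4/6i+ATRA. The single-drug groups overlapped each other, and the combination lay above both. ATM rose by 0.62 (SE 0.05) with ATRA, by 0.66 (SE 0.05) with CDK4/6i and by 1.50 (SE 0.05, adjusted p = 4.31e-30) with both on the log2 scale. CHEK2, a substrate of ATM, fell by 2.09 (SE 0.11) with both drugs. ATR, the kinase for single-stranded DNA, was lowered by ATRA (-0.57, SE 0.05) and with both drugs (-1.03, SE 0.06), but not called with CDK4/6i (-0.03, SE 0.05, adjusted p = 0.669). TOPBP1 (chr3:133600238-133661941), the activator of ATR, had 184, 198 and 191 CPM in non-treated cells, 204, 213 and 212 with ATRA, 84.8, 93.4 and 95.6 with CDK4/6i and 59.6, 55.9 and 55.0 with CDK4/6i+ATRA. It was thus slightly higher with ATRA (0.13, SE 0.04, adjusted p = 0.00326) and lower with both drugs (-1.75, SE 0.05, adjusted p = 1.01e-34), with no overlap.

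**Figure D2:**
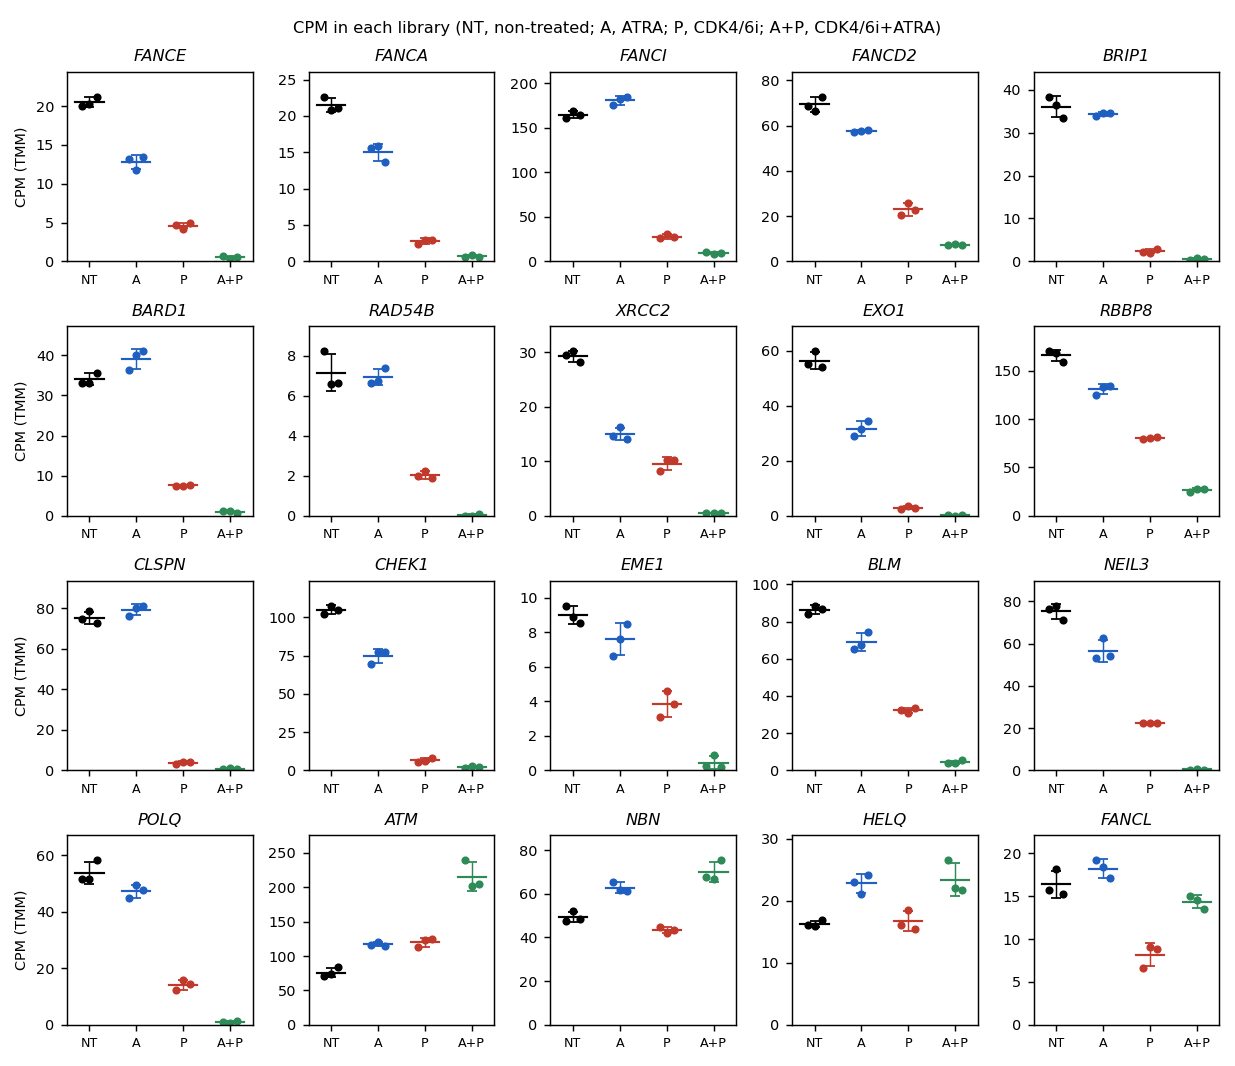
CPM of 20 genes in each of the 12 libraries (points), with group means and SD (bars, n = 3), on linear axes from 0; NT is non-treated, A is ATRA, P is CDK4/6i and A+P is CDK4/6i+ATRA. The CDK4/6i+ATRA points lie near 0 for genes such as EXO1, RAD54B and CLSPN, while those of ATM (202 to 239.7 CPM), NBN and HELQ lie above the non-treated points and those of FANCL close to them.

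The 7 junction-processing genes were called lower with CDK4/6i+ATRA (40.7% of all tested genes were), by very different amounts, and the call of MUS81 was lost under 4 alternatives given with its values. EME1 (chr17:50373229-50381483), the regulatory subunit of the MUS81 nuclease, had 9.56, 8.90 and 8.56 CPM in non-treated cells, 6.66, 7.64 and 8.51 with ATRA, 3.11, 4.58 and 3.86 with CDK4/6i and 0.275, 0.891 and 0.165 with CDK4/6i+ATRA. The ATRA libraries lay just below the controls without passing the test (-0.24, SE 0.15, adjusted p = 0.152), and the others far below (log2 -4.34, SE 0.29, adjusted p = 3.86e-19 for the last group). EME1 rests on 3, 10 and 2 counts there, and 246 bases of its exons are shared on the opposite strand with LRRC59, which held 62.4 times as many counts. BLM (chr15:90717346-90816166), the helicase that dissolves double Holliday junctions, had 84.0, 88.6 and 86.7 CPM, then 65.4, 67.2 and 74.3, then 32.5, 30.9 and 33.6, then 3.67, 3.92 and 5.29 in the same order. Its fall was -0.32 (SE 0.05), -1.42 (SE 0.06) and -4.32 (SE 0.09, adjusted p = 1.83e-39) with no overlap.

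RMI1 and RMI2, which complete the BLM complex, did not follow each other. RMI2 was at -3.71 (SE 0.15) with CDK4/6i+ATRA and did not pass the test with ATRA, except without ATRA replicate 2 (-0.22, adjusted p = 0.0419). RMI1 (chr9:83980359-84004074) had 50.3, 46.5 and 43.8 CPM in non-treated cells, 51.3, 53.8 and 55.1 with ATRA, 21.6, 25.0 and 22.9 with CDK4/6i and 19.9, 19.9 and 19.1 with CDK4/6i+ATRA. It was higher with ATRA (0.19, SE 0.06, adjusted p = 0.00481, and 0.0601 without non-treated replicate 3) and lower with both drugs (-1.26, SE 0.07, adjusted p = 6.87e-21). RMI1 shares exon bases with HNRNPK on the opposite strand, which held 24.1 times as many counts.

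GEN1 and SLX4, a resolvase and a nuclease scaffold, also rose with ATRA alone. GEN1 (chr2:17753278-17788946) had 28.7, 31.0 and 35.8 CPM in non-treated cells, 46.5, 48.0 and 44.3 with ATRA, 16.5, 18.9 and 15.5 with CDK4/6i and 11.6, 10.7 and 15.3 with CDK4/6i+ATRA (log2 0.54 with SE 0.08 for ATRA, adjusted p = 2.48e-08, and -1.34 with SE 0.10 for both drugs, adjusted p = 4.64e-17). SLX4 (chr16:3581181-3611606) had 23.1, 22.01 and 24.0 CPM, then 28.8, 32.4 and 33.1, then 15.6, 17.7 and 19.4, then 19.6, 19.3 and 18.6. For both genes the ATRA libraries lay above and the CDK4/6i+ATRA libraries below the controls without overlap. SLX4 was at 0.45 (SE 0.08, adjusted p = 1.49e-06) with ATRA and -0.27 (SE 0.09, adjusted p = 0.0053) with both drugs. MUS81 (chr11:65859674-65867653) had 48.0, 50.2 and 50.1 CPM in non-treated cells, 47.02, 46.6 and 43.2 with ATRA, 34.7, 40.2 and 37.9 with CDK4/6i and 47.3, 42.6 and 43.3 with CDK4/6i+ATRA. It was lower with CDK4/6i (-0.40, SE 0.06, adjusted p = 1.71e-07), without overlap. Its call with CDK4/6i+ATRA (-0.16, SE 0.06, adjusted p = 0.0221) was lost without CDK4/6i+ATRA replicate 2 or 3, with DESeq2 and with at least 10 counts in every library, at adjusted p = 0.0839, 0.0706, 0.07 and 0.0676.

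Of the 3 further enzymes, NEIL3 and POLQ fell and HELQ rose. NEIL3 (chr4:177309874-177371268), a glycosylase that unhooks crosslinks, had 76.6, 78.0 and 71.1 CPM in non-treated cells, 53.3, 62.7 and 54.0 with ATRA, 22.5, 22.2 and 22.5 with CDK4/6i and 0.367, 0.624 and 0.248 with CDK4/6i+ATRA. The drop from CDK4/6i to CDK4/6i+ATRA was -5.75 (SE 0.20, adjusted p = 1.14e-30), and the last group held 4, 7 and 3 counts. POLQ (chr3:121431431-121545988), the polymerase of theta-mediated end joining, had 51.4, 51.4 and 58.2 CPM, then 44.7, 49.3 and 47.7, then 12.2, 15.7 and 14.6, then 0.917, 0.535 and 1.32. Neither gene's CDK4/6i-containing groups overlapped the controls, and with both drugs the fall was -7.49 (SE 0.15) for NEIL3 and -5.83 (SE 0.15) for POLQ, with adjusted p = 1.66e-40 and 3.9e-36. The call of POLQ with ATRA (-0.19, SE 0.07, adjusted p = 0.0139) was lost without non-treated replicate 3 or ATRA replicate 1, with DESeq2 and with scaling by library size alone, at adjusted p = 0.144, 0.0827, 0.0922 and 0.0777. HELQ (chr4:83407346-83455883), a repair helicase, had 16.0, 16.0 and 16.8 CPM, then 23.1, 21.2 and 24.2, then 16.2, 18.5 and 15.4, then 26.6, 22.02 and 21.7. Both ATRA-containing groups were higher (0.49, SE 0.09, and 0.52, SE 0.09, adjusted p = 3.58e-06 and 1.92e-06), and CDK4/6i alone overlapped the controls (0.03, SE 0.09, adjusted p = 0.78).

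Levels of different genes were compared per kilobase of exon. In non-treated cells UBE2T was highest at 53.1 ± 5.14 CPM per kb, followed by RBBP8 at 37.4 ± 1.33 and TOPBP1 at 33.2 ± 1.23 (SD, n = 3 each). With CDK4/6i+ATRA the order began with MUS81 at 14.8 ± 0.84, ATM at 14.5 ± 1.42 and NBN at 14.3 ± 0.97 CPM per kb, which did not differ beyond their spread, and TOPBP1 followed at 9.86 ± 0.42. UBE2T was then at 2.65 CPM per kb. RAD51B and FANCB, at 0.514 ± 0.11 and 0.537 ± 0.09 CPM per kb, were lowest of the tested genes in non-treated cells.

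With RAD54B set aside, because it was at the floor of detection with CDK4/6i+ATRA, the interaction was furthest below 0 for NEIL3 and POLQ. NEIL3 was at -5.34 (SE 0.22, adjusted p = 9.79e-26) and POLQ at -3.72 (SE 0.21, adjusted p = 2.36e-20). The fitted -5.74 (SE 0.67) of RAD54B rests on the single count named above and gives it no rank. XRCC2 (-3.27, SE 0.28) and BARD1 (-3.17, SE 0.22) came next. For NEIL3 the single drugs left 75.3% and 29.7% of the non-treated level, and both together 0.549%. Values nearer 0 were found for CHEK1 at -1.22 (SE 0.20) and BRCA2 at -0.25 (SE 0.09, adjusted p = 0.0231, and above 0.05 without CDK4/6i replicate 3 or CDK4/6i+ATRA replicate 2 or 3). The 4 positive interactions were those of FANCL (0.66, SE 0.15), MUS81 (0.36, SE 0.09), NBN (0.34, SE 0.08) and ATM (0.22, SE 0.07). With library size alone as scaling none of the 4 passed the test, and ATM became -0.10. The call of ATM was also lost without non-treated replicate 3 or CDK4/6i+ATRA replicate 1 (adjusted p = 0.116 and 0.0872), without a filter (0.203) and with DESeq2 as the test (0.055). RAD51B, RAD52 and HELQ did not pass the interaction test, at -0.64 (SE 0.33), -0.40 (SE 0.20) and 0.00 (SE 0.13). With scaling by library size alone all 3 passed it, at -0.96, -0.72 and -0.32. RAD51B also passed without non-treated replicate 3 or CDK4/6i+ATRA replicate 1 (adjusted p = 0.0398 and 0.0339), and RAD52 without CDK4/6i+ATRA replicate 2 (adjusted p = 0.0175).

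**Figure D3:**
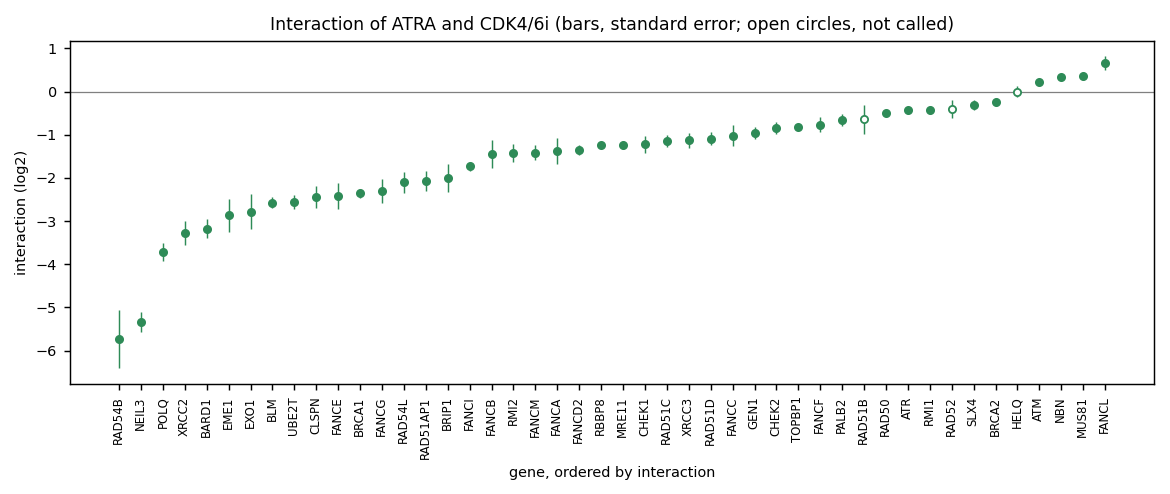
Interaction of ATRA and CDK4/6i on the log2 scale for 46 genes in order of its value (bars, SE; open points did not pass the test). Points run from -5.74 (RAD54B, at the floor of detection with CDK4/6i+ATRA) to 0.66 (FANCL), 39 of the filled points lie below 0 and 4 above.

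Ratios of partner genes within a library do not depend on scaling between libraries. They were taken as log2 of the ratio of counts, each with 0.5 added, for 23 pairs of related genes in each of the 3 treated groups, 69 comparisons in all. With 3 libraries against 3 the exact permutation test (two-sided) cannot go below p = 0.1, so a pair is described as apart when no library overlapped. In 13 pairs the ratio moved by at least 2 with CDK4/6i+ATRA, with no overlap with non-treated cells (exact permutation p = 0.1, the smallest possible, adjusted p = 0.128 over the 69 comparisons). The pairs were chosen with results known and no other pairs were computed, so this count is a description. Of all tested genes, 3098 were lower and 2965 higher by at least 2-fold, a log2 of 1 against the 2 set for pairs.

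POLQ to HELQ moved most, from 1.68, 1.68 and 1.79 in non-treated cells to -4.79, -5.25 and -4.00 with CDK4/6i+ATRA, a mean shift of -6.40. EXO1 to RBBP8 went from -1.62, -1.49 and -1.55 to -6.77, -7.72 and -5.92 (shift -5.25). POLQ thus went from more to fewer counts than HELQ, whereas EXO1 lay below RBBP8 throughout. EME1 to MUS81, the subunits of 1 nuclease, went from -2.32, -2.49 and -2.54 to -7.21, -5.51 and -7.71 (shift -4.36). UBE2T to FANCL, the E2 and E3 of FANCD2 ubiquitination, went from 1.596, 1.48 and 1.46 to -2.63, -2.74 and -2.43 (shift -4.11), and so reversed which of them had more counts. Among the kinases and their partners, the shift was -4.93 for CLSPN to TOPBP1, -4.67 for CHEK1 to ATR and -3.59 for CHEK2 to ATM. It was -3.39 for XRCC2 to RAD51D, -3.08 for BLM to RMI1, -2.45 for RMI2 to RMI1, -2.32 for FANCB to FANCL and -2.09 for MRE11 to RAD50. CDK4/6i alone shifted POLQ to HELQ by -1.96, EXO1 to RBBP8 by -3.21, EME1 to MUS81 by -0.84 and UBE2T to FANCL by -1.16. It shifted the kinase pairs, in the order given, by -3.29, -3.97 and -1.49, and the last pairs by -0.68, -0.40, -1.09, -0.09 and -0.74. All but FANCB to FANCL were apart. No CDK4/6i+ATRA library held more than 5 counts of EXO1, 6 of XRCC2 or 10 of EME1 and CLSPN. The added 0.5 weighs on their ratios.

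NBN to MRE11 was the single pair of the 13 that moved upward, from -0.80, -0.63 and -0.73 to 2.24, 2.30 and 2.26 (shift 2.99). With ATRA alone the shift was 1.07 and with CDK4/6i alone 0.35, both apart. The other pairs had smaller mean shifts. FANCD2 to FANCI shifted by 0.96, BRCA1 to BARD1 by 0.82, FANCA to FANCG by -0.49, BRCA2 to PALB2 by -0.89, GEN1 to SLX4 by -1.09, RAD51B to RAD51C by 0.85 and FANCC to FANCE by 1.93. The FANCC to FANCE libraries were uneven with CDK4/6i+ATRA, at 0.30, 2.50 and 2.49, and without replicate 1 the shift was 2.66. Without CDK4/6i+ATRA replicate 3 the shift of BRCA1 to BARD1 was 0.51, and without replicate 1 that of RAD51B to RAD51C was 0.53. RAD51C to XRCC3 (0.61, and 0.25 to 1.02 as libraries were left out) overlapped the controls (exact permutation p = 0.4, adjusted p = 0.4525). ATR to ATRIP rests on ATRIP counts of 0 to 7 and RAD54L to RAD54B on 0, 0 and 1 count of RAD54B, where the added 0.5 sets the ratio, and neither was read.

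**Figure D4:**
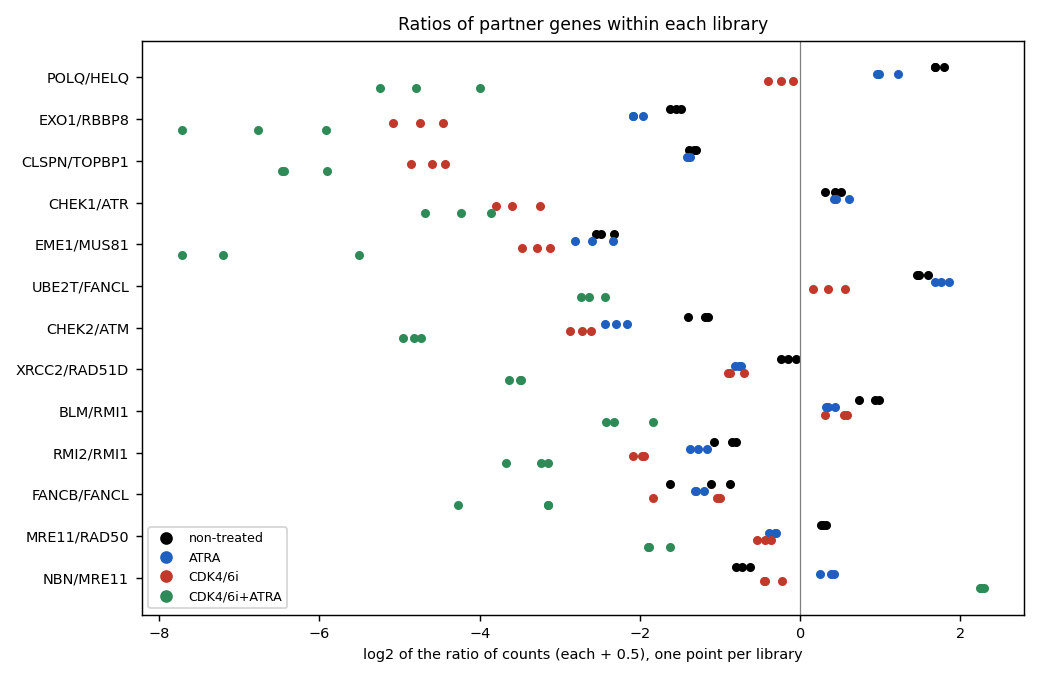
Log2 ratio of the counts of 2 partner genes in each library (1 point per library, 3 per group) for the 13 pairs that moved by at least 2 with CDK4/6i+ATRA. For 12 pairs the CDK4/6i+ATRA points lie left of the non-treated points and for NBN to MRE11 they lie right, at 2.24 to 2.30.

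Further genes of the same pathways, 46 in number and outside the 47, were counted in the same way. Of 44 tested, 26 were lower and 3 higher with ATRA, 29 and 5 with CDK4/6i, and 32 and 4 with CDK4/6i+ATRA (median -0.96 for the last). The shares lower were 59.1%, 65.9% and 72.7%, when 35.5%, 27.9% and 40.7% of all tested genes were. Those higher were 6.82%, 11.4% and 9.09%, against 32.1%, 28.3% and 41% of all tested genes. The 4 higher with CDK4/6i+ATRA, named after their values were seen, were MCM9 (0.65), ERCC4 (0.52), HUS1 (0.51) and FAAP20 (0.30). The largest changes were falls. TIMELESS, a fork protection factor, was at -4.33 (SE 0.08), HROB, which loads a helicase at recombination sites, at -4.17 (SE 0.28), PARPBP, which restrains recombination, at -4.09 (SE 0.14) and DNA2, a resection nuclease, at -3.84 (SE 0.13).

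Other repair pathways gave mixed counts in the same comparison, in which 40.7% of all tested genes were lower and 41% higher. In non-homologous end joining 9 of 18 genes were lower and 4 higher (median -0.35), with LIG4, its ligase, at 2.32 and PRKDC at -1.99. Nucleotide excision repair had 13 of 21 lower and 5 higher (median -0.35), with the damage sensors DDB2 at -2.28 and XPC at -1.21. All 6 tested mismatch repair genes were lower (median -1.88), with MSH6 at -3.73 and PMS1 at -2.53. Base excision repair had 10 of 18 lower and 6 higher (median -1.08), with the uracil glycosylase UNG at -4.96 and PARP1 at -2.93. The shares lower in end joining, nucleotide excision and base excision repair were 50%, 61.9% and 55.6%, and those higher 22.2%, 23.8% and 33.3%. The lists are small and of unequal size, and differences between them were not tested. For comparison, the 14 proliferation markers had a median of -5.34.

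**Figure D5:**
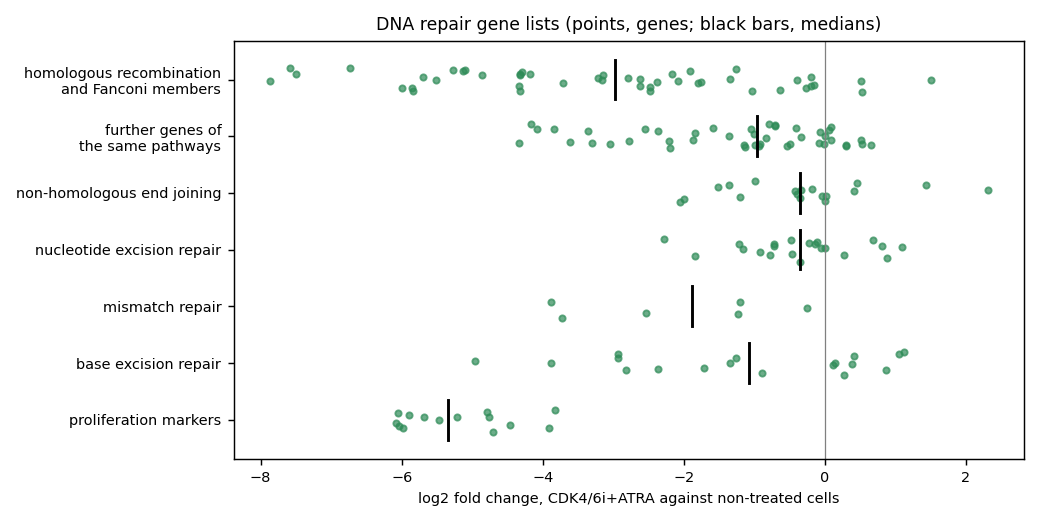
Log2 fold change of each tested gene (points) from non-treated cells to CDK4/6i+ATRA in 7 gene lists, with the median of each list as a black bar. The 46 homologous recombination and Fanconi genes spread from -7.87 to 1.50 with a median of -2.97, between the proliferation markers (-5.34) and the other repair lists (-1.88 to -0.35).

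Overlapping genes may limit single values, and how far they moved any value was not tested. Of the 47 genes, 22 share exon bases with another gene, 18 of them on the opposite strand, and for 9 (EME1, FANCA, FANCC, FANCI, FANCL, GEN1, RAD52, RAD54L and RMI1) the opposite gene held over 10% of their counts. Without these 9, a subset formed after the data were seen, 33 of 37 genes were lower and 3 higher with CDK4/6i+ATRA (median -2.80), against 40.7% and 41% of all tested genes.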

How the data were processed

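RNA-Seq was made from total RNA of 12 HL-60 libraries, 3 per group. According to the labels and the study's methods, the authors trimmed reads with Trimmomatic (0.33), aligned them to hg38 with STAR (2.7.11a, both versions from the submitters' processing notes) and deposited a table of raw counts per gene for 59251 genes with NCBI RefSeq annotation. The methods name RSEM for counting, whereas the layout of the table, with exon starts, ends and strand per gene, is that of featureCounts. A directional kit was used, but the strand setting of the counting is not given in the sources used here. Reads that mapped to several places or to overlapping genes may therefore have been divided or lost.

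Whole counts were analysed with edgeR 4.0.16 in R 4.3.3. Genes passing filterByExpr over the 4 groups (13318) were kept, libraries were scaled by TMM, and 1 quasi-likelihood model over all 12 libraries (8 residual degrees of freedom, common biological coefficient of variation 3.70%) gave 6 comparisons, with p-values adjusted by Benjamini and Hochberg across the tested genes and called under 0.05. Interaction is a contrast of that fit. Total counts per library were 12230923 to 18679544. Intervals and floors (3 counts) cover counting error only. Replicates of a group differed by more than sampling noise (chi-square per degree of freedom 1.83 to 6.49), which cannot show that their cultures were separate. All were kept. The labels call them biological replicates without saying what was separate.

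The genes, gene lists, pairs and motifs were chosen with earlier results of these data known. Values per library are given for the 2 genes with the largest absolute change per role with CDK4/6i+ATRA, those called higher there, those called in opposite directions with ATRA alone and with CDK4/6i+ATRA, and the 3 lowest and 3 highest interactions. Of other pathway lists at most 4 genes are named, by the largest absolute change among called genes of at least 5 CPM, unless stated otherwise. Alternatives were DESeq2 1.42.0 size factors, DESeq2 as the test, scaling by library size alone, no filter or a minimum of 10 counts per library, a block for the replicate number, a fit of the compared groups only, and omission of each library. Code was tested on simulated data. Promoter sequences came from RefSeq (GRCh38.p14).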

Additional observations from a re-analysis of the deposited data

Results flagged for a closer look

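The effect of ATRA differed with and without CDK4/6i for 43 of the 46 tested genes by the interaction term of edgeR's quasi-likelihood fit, adjusted over all tested genes. With 3 libraries per group, no test for outliers within a group was run. Values are interactions on the log2 scale, 39 negative and 4 positive, when 27% and 24.5% of all tested genes were called.

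In the Fanconi core complex and its E2 enzyme the values were -1.38 for FANCA, -1.46 for FANCB, -1.02 for FANCC, -2.43 for FANCE, -0.77 for FANCF, -2.30 for FANCG, -1.42 for FANCM and -2.55 for UBE2T, with FANCL alone above 0 at 0.66. FANCD2 was at -1.35 and FANCI at -1.73. Of the BRCA group, BRCA1 was at -2.36, BARD1 at -3.17, BRCA2 at -0.25, PALB2 at -0.66 and BRIP1 at -2.00.

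Among strand exchange factors the interaction was -2.08 for RAD51AP1, -1.15 for RAD51C, -1.10 for RAD51D, -3.27 for XRCC2, -1.13 for XRCC3, -2.11 for RAD54L and -5.74 for RAD54B, the last resting on 1 count with CDK4/6i+ATRA. In end sensing and resection it was -1.23 for MRE11, -0.50 for RAD50, -1.24 for RBBP8, -2.78 for EXO1 and 0.34 for NBN.

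The checkpoint genes gave 0.22 for ATM, -0.43 for ATR, -1.22 for CHEK1, -0.85 for CHEK2, -0.82 for TOPBP1 and -2.45 for CLSPN. Junction-processing genes gave -2.58 for BLM, -0.43 for RMI1, -1.43 for RMI2, -2.86 for EME1, 0.36 for MUS81, -0.32 for SLX4 and -0.96 for GEN1. POLQ was at -3.72 and NEIL3 at -5.34. The call of SLX4 was lost without non-treated replicate 2, ATRA replicate 3, CDK4/6i replicate 3 or CDK4/6i+ATRA replicate 3 (adjusted p = 0.0522 to 0.104).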

How the results depend on the processing

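With at least 10 counts in every library, 31 of these genes could be tested, which removed many of the deepest falls. The genes called lower were then 12 with ATRA, 25 with CDK4/6i, 25 with CDK4/6i+ATRA, 25 for CDK4/6i+ATRA against CDK4/6i and 26 against ATRA, with 24 negative interactions. The share of all 10296 genes tested there that was lower was 39.1%, 32.4%, 42.7%, 41.9%, 35.8% and 30.5% in that order, and the 12 of 31 lower with ATRA stood near it. The medians were -0.94 for CDK4/6i, -2.06, -1.06 and -1.87 for both drugs against non-treated cells, CDK4/6i and ATRA, and -0.84 for the interaction. Scaling by library size alone moved the median of all tested genes of CDK4/6i+ATRA over non-treated cells from 0.02 to -0.25, against CDK4/6i from 0.00 to -0.28, against ATRA from 0.04 to -0.26, and that of the interaction from -0.02 to -0.34. Lower genes then made up 59.5%, 63.3%, 68.4% and 81.5% of all calls, in place of 49.8%, 50.2%, 47% and 52.5%, and 62.1% for the interaction without a filter. The medians of these genes became -3.24, -1.87, -2.79 and -1.56. Under this scaling 1 gene was higher under both drugs than with ATRA and 0 had a positive interaction by edgeR (4 with DESeq2 size factors). MUS81 against CDK4/6i (-0.035), HELQ (-0.27) and NBN (-0.15) against ATRA, and the interactions of ATM (-0.10) and HELQ (-0.32) turned negative. The count higher than with ATRA was also 1 without a filter, with only the groups compared, and without ATRA replicate 3 or CDK4/6i+ATRA replicate 3, ranging from 1 to 2 as libraries were left out, while that median ranged from -2.71 to -2.39. The share of promoters with an E2F match was 13.95% without the bases after the start. For none of these shifts was a cause tested beyond the smaller number of genes.

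Same-numbered libraries did not deviate together more than others, which cannot show whether their cultures were handled together. Deviations of same-numbered libraries correlated at -0.114 to 0.070, those of other pairs at -0.099 to 0.095. With the replicate block, 41 genes were lower and 3 higher with CDK4/6i+ATRA (median -2.97), and counts in the other comparisons were the same as without it.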
